A study of Mus musculus with 4 samples.

Results

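Dpp4 or Mfap5 positive mesenchymal cells were described in Drop-seq data of mouse embryonic hearts. Members were selected on measured UMI counts. A cell was a member (a positive cell) when it had at least 500 UMIs (unique molecular identifiers, each standing for a captured transcript), at most 20% mitochondrial UMIs and under 1% of UMIs from the sarcomere genes Tnnt2, Actc1, Myh6 and Myh7. It also needed at least 1 UMI of Dpp4 or Mfap5, at least 2 UMIs of Col1a1, Col1a2 and Col3a1 together, and fewer than 2 of the mesothelial genes Upk3b, Upk1b, Msln, Krt7, Krt19, Lrrn4, Gpm6a and Aldh1a2. The rule found 792 members among 21495 cells that passed the limits on UMIs and mitochondrial UMIs, out of 24849 deposited cells. Of the members, 175 came from control E13.5, 385 from Lats1/2 CKO E13.5, 87 from control E14.5 and 145 from Lats1/2 CKO E14.5. Every set of 4 values below follows this order of libraries.

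Each group was 1 library of heart tissue, so a genotype at a stage had no replicate. Controls carried a Wt1 allele with CreERT2 (Wt1 CreERT2/+) and a Rosa26mTmG/+ reporter, and the knockouts carried these alleles and floxed Lats1/2 alleles (F/F). All 4 groups therefore had CreERT2, a Cre recombinase that needs tamoxifen to act and that here is made where Wt1 is active, and 1 changed Wt1 allele. Cells with the mTmG reporter switch from a red to a green membrane protein (EGFP) once Cre has acted. How many embryos went into a library, when tamoxifen was given and whether cells were sorted is not stated in the labels. The sample labels give stage E13.5 where the design text of the series has day 13.4, and the labels were used.

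Dpp4 encodes dipeptidyl peptidase 4, a surface enzyme that trims short ends from secreted peptides, and it is known as a marker of fibroblasts in the outer sheath of vessels and organs. Mfap5 encodes a glycoprotein of the microfibrils on which elastic fibres form. In the embryonic heart, epicardial cells on the surface move into the wall and become fibroblasts and mural cells. Lats1 and Lats2 are kinases of the Hippo pathway that hold back the coactivators YAP and TAZ, which act on genes through TEAD factors bound to DNA.

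The start regions of 4 genes are shown because the results turn on them. Dpp4 chose the members, Ogn and Col11a1 were higher in members than in other collagen cells, and Ccn1 (called Cyr61 in the table) is a textbook target of YAP. Each sequence is the 250 bases before the RefSeq start on build GRCm38.p6, written 5′ to 3′ on the gene's strand. Capitals mark the 6-base core of the TEAD motif, GGAATG, or its reverse complement CATTCC, which is the same motif on the other strand. Mfap5 is named only.
Dpp4, minus strand, chr2:62412232-62412481: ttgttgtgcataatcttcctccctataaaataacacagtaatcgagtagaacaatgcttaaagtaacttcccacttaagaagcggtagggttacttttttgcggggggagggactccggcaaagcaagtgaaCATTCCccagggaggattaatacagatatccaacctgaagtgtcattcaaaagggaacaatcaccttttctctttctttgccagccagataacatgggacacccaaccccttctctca
Ogn, plus strand, chr13:49607765-49608014: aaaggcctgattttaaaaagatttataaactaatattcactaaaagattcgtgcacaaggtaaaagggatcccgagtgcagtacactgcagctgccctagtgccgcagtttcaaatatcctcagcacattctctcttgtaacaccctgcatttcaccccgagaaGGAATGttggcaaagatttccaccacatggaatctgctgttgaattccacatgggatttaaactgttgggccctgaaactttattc
Col11a1, plus strand, chr3:114030290-114030539: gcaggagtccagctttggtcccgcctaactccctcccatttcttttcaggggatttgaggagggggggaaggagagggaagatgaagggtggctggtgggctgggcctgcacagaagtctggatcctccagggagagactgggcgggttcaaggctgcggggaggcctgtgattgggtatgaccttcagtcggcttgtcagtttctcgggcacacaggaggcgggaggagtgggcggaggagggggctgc
Ccn1, minus strand, chr3:145649986-145650235: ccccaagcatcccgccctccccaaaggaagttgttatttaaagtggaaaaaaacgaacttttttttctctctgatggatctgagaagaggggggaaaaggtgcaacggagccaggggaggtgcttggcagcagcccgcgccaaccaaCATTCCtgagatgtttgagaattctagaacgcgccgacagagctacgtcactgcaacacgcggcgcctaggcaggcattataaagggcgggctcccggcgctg
The core began 118 bases before the start of Dpp4, 86 before that of Ogn and 103 before that of Ccn1, and the window of Col11a1 did not hold these letters. Of all 32851 RefSeq start windows of this length, 12.6% held the core on either strand. Counted by symbol, 14.4% of 27025 symbols held it in at least 1 window. The 12 symbols searched were chosen after their values were seen. Of these, 11 had a sequence and 5 had a match in at least 1 window (Dpp4, Ogn, Mme, Ccn1 and Ankrd1). A match is a description of the letters and not a bound site. Sequences were found for 42 of 75 genes called higher in the knockout, under the share needed, so a comparison of called genes with all genes would be void.

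Members had more UMIs than collagen cells without Dpp4 and Mfap5 UMIs (negative collagen cells), with medians of 2442, 2693, 1289 and 1541 against 1468, 1724, 898 and 914.5. E13.5 libraries were deeper than E14.5 libraries, and the fewest genes in any deposited cell were 500 at E13.5 but 300 at E14.5. The median mitochondrial share of members was 2.65%, 2.18%, 2.35% and 3.44%. There were 1738, 2104, 1354 and 1052 negative collagen cells and 119, 238, 80 and 205 cells with 2 or more mesothelial genes (mesothelial cells) under the same limits. Libraries shared 14 cell barcodes among 24835 distinct ones, and 1 member carried a shared barcode. No doublet caller was run.

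Most members were positive for 1 of the 2 genes. There were 425 cells with Dpp4 only, 257 with Mfap5 only and 110 with both. By library, Dpp4-only cells numbered 75, 210, 42 and 98, Mfap5-only cells 73, 113, 36 and 35, and cells with both 27, 62, 9 and 12. Just inside the rule lay 439 cells with exactly 1 UMI of Dpp4 and Mfap5 together, and 153 cells with exactly 2 collagen UMIs. Just outside it lay 66, 123, 25 and 40 cells with Dpp4 or Mfap5 but 1 collagen UMI, and 3, 14, 4 and 17 with exactly 2 mesothelial genes. A further 65, 139, 28 and 77 positive cells had 3 or more mesothelial genes. The summed level of Dpp4 in members was 266, 388, 425 and 540.2 CPM (UMIs of the gene per 1000000 UMIs of the class), and that of Mfap5 was 320.2, 248, 567 and 209.8 CPM. The rule chose the cells on these genes, so these values are descriptive. As a background, 0, 0, 1 and 0 of 30, 76, 301 and 299 cardiomyocyte cells (at least 5% sarcomere UMIs) had a Dpp4 UMI and 0, 1, 0 and 0 an Mfap5 UMI. Median UMIs of these cardiomyocyte cells were 1409, 1505, 948 and 1075. After each cell was thinned to 500 UMIs none had either, and 3 cells of each total give upper limits of 10%, 3.95%, 0.997% and 1.0%.

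Many members carried several endothelial markers, which goes against the label of the cells as mesenchymal. Of 9 fixed endothelial and endocardial markers (Cdh5, Pecam1, Kdr, Tie1, Emcn, Npr3, Fabp4, Plvap and Egfl7), at least 2 were detected in 120, 202, 45 and 41 members (68.6%, 52.5%, 51.7% and 28.3%). Among negative collagen cells the shares were 8.92%, 10.1%, 9.16% and 8.65%. Cells were not thinned for these shares, and members had more UMIs per cell than negative cells. The part of depth in this gap was not tested. At least 4 of the markers were found in 96, 166, 28 and 29 members. Cells with both Dpp4 and Mfap5 had at least 2 endothelial markers in 27 of 27, 54 of 62, 8 of 9 and 5 of 12 cases. Dpp4-only cells had them in 40, 87, 13 and 21 cases, and Mfap5-only cells in 53, 61, 24 and 15. The members were therefore split, after these values were seen, into 384 cells with fewer than 2 endothelial markers (endothelial-poor, 55, 183, 42 and 104 cells) and 408 with at least 2 (endothelial-rich). Of the endothelial-poor members 39, 138, 32 and 86 had none of the 9 markers and 16, 45, 10 and 18 had 1. Median UMIs were 1861, 2666, 1090 and 1302 in endothelial-poor members and 2581, 2732, 1729 and 2492 in endothelial-rich ones.

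**Figure D1:**
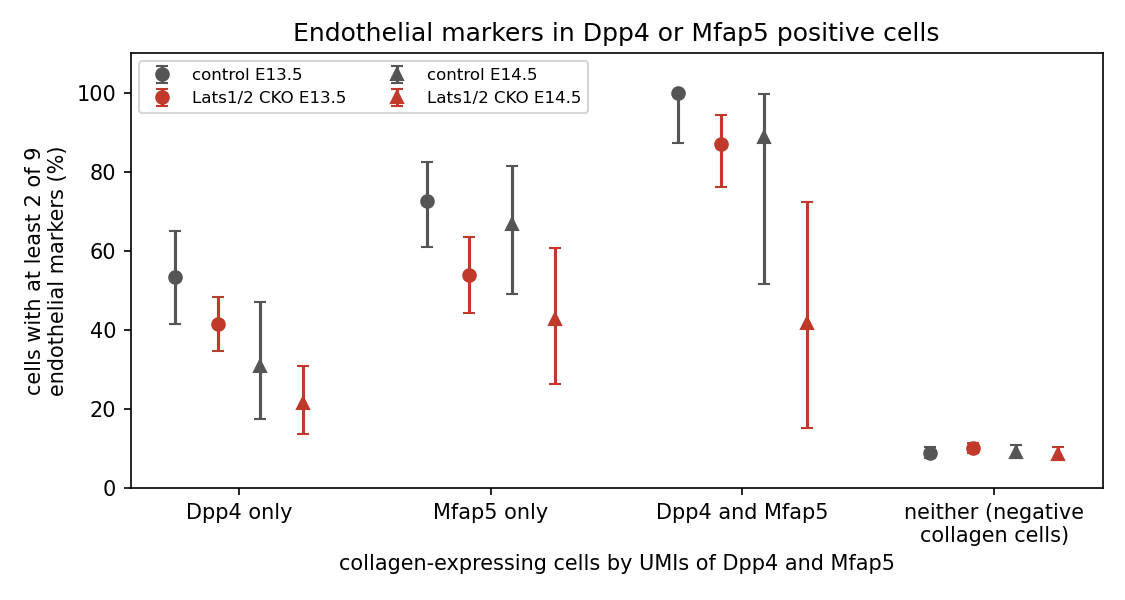
Share (%) of cells with at least 2 of 9 endothelial markers, by library, for collagen-expressing cells with Dpp4 only, Mfap5 only, both or neither; points are libraries and bars are 95% Clopper-Pearson intervals that cover counting error only. In every library the share was higher in each positive class than the 8.65% to 10.1% of negative cells, and in each class it was lowest in Lats1/2 CKO E14.5. Cells were not thinned, and positive cells had more UMIs than negative ones.

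The 2 sides of the split also differed in markers that did not make it. The summed level of the 9 endothelial markers was 137, 87.4, 210.2 and 133 CPM in endothelial-poor members against 3756, 4612, 3946 and 3971 CPM in endothelial-rich ones, and negative collagen cells with fewer than 2 markers had 52.8, 90.4, 144 and 154 CPM. The split was made on these markers, so the levels describe it. The 12 fibroblast markers, which the split did not use, summed to 6593, 5649, 6361 and 4035 CPM in endothelial-poor members and 1690, 1534, 1835 and 1343 CPM in endothelial-rich ones. These 2 ranges did not overlap. Collagen UMIs per cell had medians of 19 in control E13.5, 36 in Lats1/2 CKO E13.5 and 22 in Lats1/2 CKO E14.5 among endothelial-poor members, with control E14.5 lowest, and of 4, 3, 3 and 3 in endothelial-rich ones. Col1a1 stood at 1785, 2547, 2114 and 4607 CPM in the poor and 55.5, 135, 181 and 526 CPM in the rich members, and Col3a1 at 6046, 6895, 5208 and 4526 and 1444, 1333, 1236 and 1240 CPM. The rule chose members on these collagens with a floor of 2 UMIs, so their values are descriptive. Endothelial-rich members with a UMI of Dcn, Tcf21 or Pdgfra, genes of fibroblasts, numbered 14, 39, 7 and 10, and their origin as doublets was not tested. Immune transcripts Ptprc or Fcer1g were found in 2, 11, 1 and 0 members. Erythroid markers, which can come from free RNA, summed to 2090, 8869, 15970 and 3457 CPM in endothelial-poor members and differed between libraries.

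Positive cells made up a larger share of collagen cells in the knockout libraries. With each cell thinned to 500 UMIs, they were 1.83%, 4.93%, 3.62% and 6.61% of collagen cells. The ratio of knockout to control was 2.70 at E13.5 (95% interval 1.73 to 4.34) and 1.83 at E14.5 (1.23 to 2.74). Without thinning the shares were 9.15%, 15.5%, 6.04% and 12.1%, with ratios of 1.69 and 2.01. As a share of all kept cells, thinned, they were 0.581%, 1.62%, 0.799% and 1.20%. These intervals cover counting error only, and with 1 library per genotype and stage there was no test.

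In endothelial-poor cells the ratio of knockout to control was above 1 at both stages, while the endothelial-rich ratio at E14.5 changed direction with thinning. Among collagen cells with fewer than 2 endothelial markers, positive cells were 1.05%, 3.97%, 2.64% and 6.44% after thinning, with a knockout to control ratio of 3.79 at E13.5 (2.12 to 7.28) and 2.44 at E14.5 (1.55 to 3.91). Among collagen cells with at least 2 markers they were 13.6%, 17.6%, 17.5% and 9.80%, with ratios of 1.29 (0.622 to 2.84) and 0.560 (0.158 to 1.65). Without thinning the endothelial-poor shares were 3.36%, 8.82%, 3.30% and 9.77% and the endothelial-rich shares 43.6%, 48.7%, 26.6% and 31.1%. The endothelial-rich ratio at E14.5 was then 1.17 (0.745 to 1.82), and 1.26 (0.512 to 3.05) with cells thinned to 800 UMIs. At 500 UMIs it rested on 14 positive cells in control and 5 in the knockout. The intervals cover counting error only, and the difference between the ratios was not tested. The endothelial class of a cell was set on its unthinned counts, while the limits on collagen and mesothelial genes were applied after thinning, which left 88, 136, 80 and 51 of 275, 415, 169 and 132 endothelial-rich collagen cells.

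**Figure D2:**
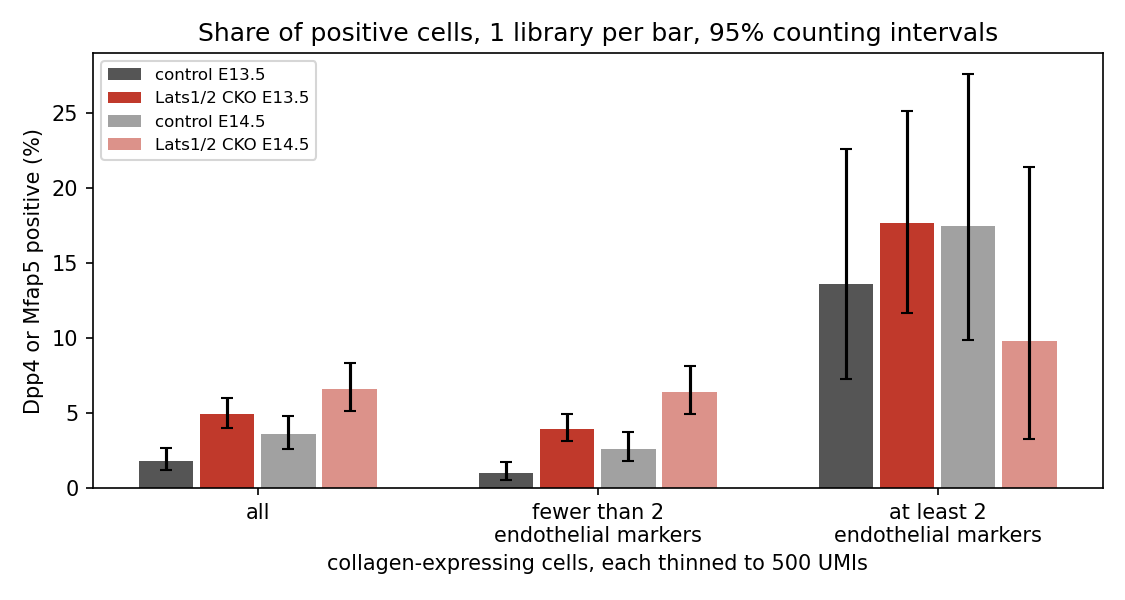
Share (%) of Dpp4 or Mfap5 positive cells among collagen-expressing cells thinned to 500 UMIs, for all such cells and split by endothelial markers; each bar is 1 library and error bars are 95% Clopper-Pearson intervals that cover counting error only. In endothelial-poor cells the knockout bars (3.97% and 6.44%) stood above the control bars (1.05% and 2.64%), while the intervals of all 4 endothelial-rich bars overlapped.

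Over all members against all negative collagen cells, 866 genes were higher (6.97%) and 671 lower (5.4%) of 12424 tested, a contrast that also holds the difference in endothelial-marker share. Endothelial-poor members were then compared with negative collagen cells that also had fewer than 2 endothelial markers. Sums over cells per library were compared with edgeR's quasi-likelihood test, library as a block, among 11004 genes, and 295 genes were higher (2.68%) and 291 lower (2.64%) at a Benjamini-Hochberg adjusted p under 0.05. Ogn, Spon2, Prss23 and Mme were among the higher genes, and Vcan, Postn and Hapln1 were among the lower ones. Without the Lats1/2 CKO E13.5 library, which held most of these UMIs, 103 were higher and 78 lower, and without Lats1/2 CKO E14.5 176 and 160. Of 142 called genes that were named or listed, 72 stayed called whichever library was left out, and the genes named below did so unless a library is given.

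Ogn encodes osteoglycin, a small proteoglycan that binds collagen. Its level was 587, 859, 734 and 1046 CPM in endothelial-poor members and 126, 157, 163 and 180.4 CPM in negative cells (log2 difference 2.35, SE 0.15, edgeR adjusted p = 3.32e-54). Spon2, a secreted matrix protein, stood at 587, 632, 419 and 1116 against 147, 113, 218 and 202 CPM (2.10, SE 0.15, adjusted p = 3.43e-42). For both genes the lowest member library was above the highest negative library. Prss23, a secreted serine protease, stood at 113, 198, 105 and 434 against 31.6, 26.4, 21.1 and 50.8 CPM (2.71, SE 0.21, adjusted p = 2.39e-35). Mme, the membrane peptidase neprilysin, stood at 121, 193, 105 and 219.7 against 17.7, 25.2, 26 and 29.9 CPM (2.78, SE 0.23, adjusted p = 7.73e-30). Gucy1a3, a subunit of the receptor for nitric oxide, stood at 515, 956, 367 and 786 against 198, 167, 265 and 208 CPM (1.74, SE 0.15, adjusted p = 1.83e-28). Prss23, Mme and Gucy1a3 also had no overlap between members and negative cells. The vasoactive peptides Adm (adrenomedullin, 3.75) and Edn1 (endothelin 1, 2.32) were higher too, with adjusted p = 3.22e-23 and 1.61e-22 in edgeR.

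Among the other collagens, 8 of 16 tested were higher and 2 lower, with a median log2 difference of 0.62 against -0.04 for all genes tested. Col11a1, a fibril collagen, stood at 233, 354, 209.7 and 896 CPM in members and 69.2, 77.8, 93.6 and 135 CPM in negative cells (2.14, SE 0.16, edgeR adjusted p = 1.82e-37). Col14a1, a collagen that sits on the surface of fibrils, stood at 322, 491, 332 and 526 against 77.3, 111, 198 and 186 CPM (1.72). All 4 member values of each gene were above all 4 negative values. Col8a1, a short-chain collagen, was higher by 1.77 on the log2 scale. Of the microfibril and elastic fibre genes, 2 of 19 were higher (Lox and Fn1) and 8 lower, with a median of 0.08. Lox, which crosslinks collagen and elastin, lost its call without Lats1/2 CKO E14.5. Fbln5 and Fbln2, which join elastin to cells and matrix, were lower (log2 -0.84 and -0.90), and Eln itself (elastin, -0.65) lost its call without control E13.5. Mfap4 and Fbn1, other microfibril genes, did not pass the test (0.19 and 0.31).

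Proteoglycans and matricellular genes were mostly lower, with 3 of 17 higher and 10 lower and a median of -0.72. Vcan, the large proteoglycan versican, stood at 667, 394, 367 and 191 CPM in endothelial-poor members and 1537, 1785, 1145 and 1255 CPM in negative cells (-1.95, SE 0.15, edgeR adjusted p = 2.39e-35). Postn, periostin, stood at 1174, 772, 1223 and 289 against 2546, 2703, 2557 and 2526 CPM (-1.77, SE 0.14, adjusted p = 5.51e-35). In both genes the lowest member value was that of Lats1/2 CKO E14.5, and no member library reached a negative one. Tgfbi (a matrix adhesion protein, -1.65) and Lum (lumican, -1.35) were lower as well. Of 8 valve mesenchyme markers 5 were lower and none higher by edgeR. An unadjusted p under 0.05 was found for 7 of the 8, against 1395 of all 11004 genes tested. Lower markers included Hapln1, a link protein for hyaluronan (-1.76), and Sox9, a chondrogenic factor (-1.25). Of 10 mural markers 5 were lower, Rgs5 of pericytes among them (-1.63). The summed valve markers were 716, 333, 524 and 237 CPM in members against 1306, 1122, 943 and 997 CPM in negative cells.

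Fibroblast and epicardial markers moved in different directions. Of 12 fibroblast markers 3 were higher (Dcn, Tcf21 and Col6a1) and 6 lower (Vcan, Postn, Lum, Twist1, Dpt and Prrx1), with a median of -0.59. The calls of Col6a1 and Prrx1 were lost without Lats1/2 CKO E13.5. Tcf21, the factor that marks cardiac fibroblasts and their epicardial precursors, stood at 739.7, 580.4, 384 and 295 CPM against 331, 248, 247 and 191 CPM (0.97, SE 0.15, edgeR adjusted p = 6.79e-09). Within each library Tcf21 was higher in members, although the member value of Lats1/2 CKO E14.5 lay below the negative value of control E13.5. Pdgfra, a receptor of fibroblasts, was 281, 158, 157 and 127 against 214, 209.6, 199 and 199.5 CPM and did not pass (-0.25, adjusted p = 0.639). All 3 epicardial markers that could be tested were higher. These were Wt1 (2.17), an epicardial factor, Sema3d (1.96), a guidance molecule, and Tbx18 (0.86), an epicardial factor whose call was lost without Lats1/2 CKO E13.5. Members with 1 mesothelial gene, which the rule allows, numbered 10, 58, 9 and 25, and epicardial markers summed to 386, 411, 297 and 364 CPM in endothelial-poor members, 155, 113, 140.1 and 153 CPM in negative cells and 1637, 1210, 1504 and 1583 CPM in mesothelial cells. The part of these mesothelial transcripts in the other differences was not tested.

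**Figure D3:**
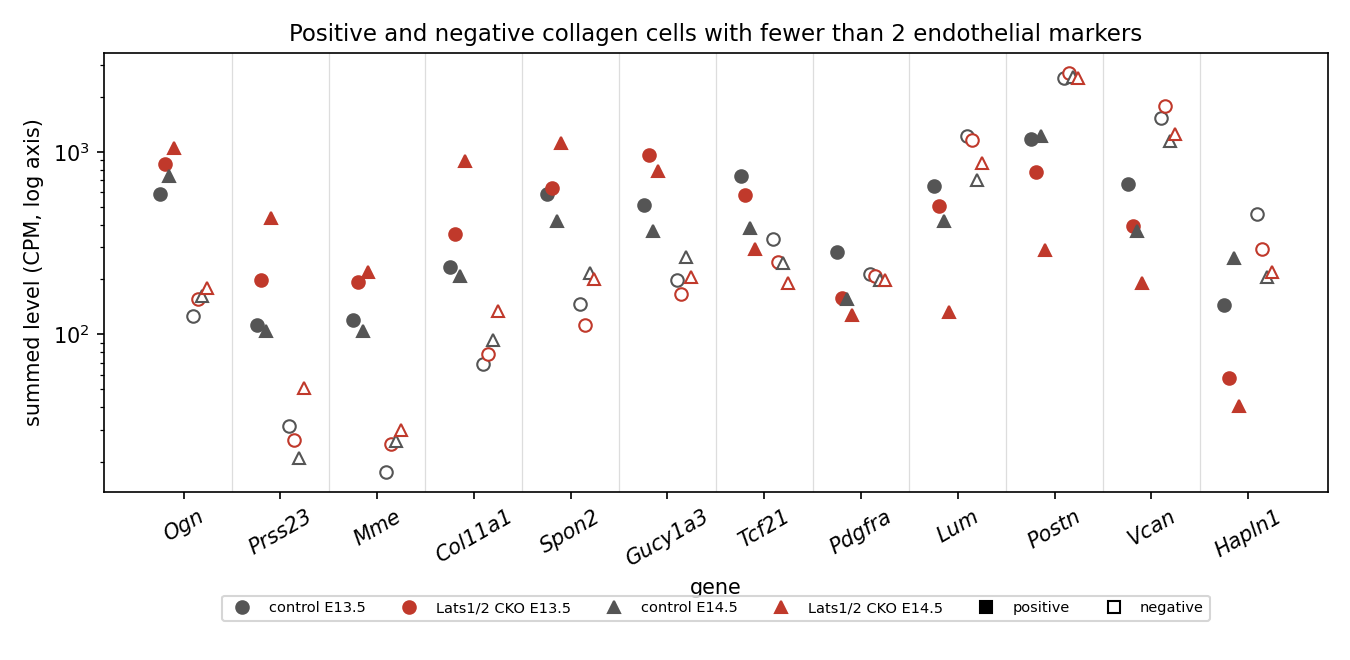
Summed level (CPM, log axis) of 12 genes in positive (filled) and negative (open) collagen cells with fewer than 2 endothelial markers; each point is 1 library, circles are E13.5, triangles E14.5, grey control and red Lats1/2 CKO. Ogn, Prss23, Mme, Col11a1, Spon2 and Gucy1a3 lay higher in every positive library, and Postn and Vcan lay lower.

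Of 17 tested YAP and TAZ targets 4 were higher (Igfbp3, Crim1, Amotl2 and Ankrd1) and 1 lower (Tgfb2, whose call was lost without either knockout library), with a median of 0.21. Ankrd1, a nuclear protein of stretched muscle and a known target of YAP, stood at 145, 206, 139.8 and 589.6 CPM against 53.8, 87.7, 138 and 208 CPM (1.22, edgeR adjusted p = 9.16e-11). Cyr61 (now Ccn1) and Ctgf, matricellular targets of YAP, did not pass (0.21 and -0.33). Of 20 Hippo pathway genes 4 were higher, with Vgll3, a cofactor that binds TEAD, at 1.79, and 1 lower. The retinoid genes Lrat, which makes retinol esters for storage, and Dhrs3, which reduces retinal to retinol, were higher, Dhrs3 by 1.46. Lrat was 0, 122, 0 and 127 CPM in members, with UMIs in the knockout libraries only, and its call was lost without either of them. The glycolysis list was higher in 5 of 16 (median 0.50). It also holds P4ha1, a collagen prolyl hydroxylase and not a glycolytic enzyme, which was higher by 1.14.

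Early response genes, which dissociation of tissue can induce, were lower in 9 of 18 and higher in 1 (Klf6, whose call held only without control E14.5), with a median of -0.56 and Fos at -0.65. Of 24 lineage transcription factors 2 were higher and 8 lower, with Tbx20, a cardiac T-box factor, at -1.09. TGF-beta and BMP genes were higher in 1 of 19 and lower in 5, with the ligands Bmp4 at 1.28 and Bmp2 at -1.98. Growth factor genes were higher in 2 of 16, one of them the heparin-binding factor Ptn (0.87), and lower in 4, one of them Igf1 (-1.06). Proteases and inhibitors were higher in 4 of 18 and lower in 4. S phase genes were higher in 1 of 16, and 0 of 17 G2 and M phase genes were called by edgeR. Of those 17, 2 had an unadjusted p under 0.05, against 1395 of all 11004 genes tested. Of 13 tested genes of the Pi16 type of adventitial fibroblast, the adult class that Dpp4 marks, Anxa3 (2.21) and Pi16 were higher and 3 were lower. Pi16 rested on 4, 3, 6 and 1 UMIs, all in Mfap5-only members and none in members with a Dpp4 UMI. Its call was lost without either control library.

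Endothelial-rich members also differed from negative collagen cells with at least 2 endothelial markers. Here 88 genes were higher (1.08%) and 30 lower (0.368%) of 8153 tested by edgeR. Without control E13.5, Lats1/2 CKO E13.5 or control E14.5 the higher calls numbered 33, 33 and 34 and the lower ones 14, 11 and 8, and without Lats1/2 CKO E14.5 there were 118 and 60. Of 46 calls that were named or listed, 12 held whichever library was left out, and all 6 genes named next were among them. Igfbp5, an IGF binding protein, stood at 3265, 2983, 4907 and 2268 CPM in endothelial-rich members and 998, 1087, 652 and 1146 CPM in negative cells (log2 1.75, SE 0.18, edgeR adjusted p = 1.77e-06). Pthlh, the parathyroid hormone-like peptide, stood at 204, 52.3, 152 and 22.9 against 13.8, 10.5, 11.6 and 19.2 CPM (3.02, SE 0.37, adjusted p = 3.1e-05). Ednrb, an endothelin receptor, stood at 2026, 1635, 2387 and 1628 against 1207, 728, 481 and 849 CPM (1.26, SE 0.16, adjusted p = 6.44e-05). All 4 member values of Igfbp5, Pthlh and Ednrb were above all 4 negative values, and the margin of Pthlh was smallest in Lats1/2 CKO E14.5. Pdgfra (-2.47) and the secreted Wnt inhibitor Sfrp2 (-2.69) were lower, and so was the fatty acid binding protein Fabp4, with 62.2, 322, 76.1 and 286 CPM against 94.1, 494, 1867 and 1593 CPM. Fabp4 is one of the 9 markers, so its value is descriptive. Fibroblast markers summed to 1690, 1534, 1835 and 1343 CPM in these members. Of 12 fibroblast markers 3 were lower and none higher by edgeR. An unadjusted p under 0.05 was found for 5 of the 12, against 919 of all 8153 genes tested.

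Dpp4-only and Mfap5-only members were then compared within each endothelial class, a comparison added after the data were seen. Without the split 123 genes were higher in Dpp4-only cells (2.21%) and 187 in Mfap5-only cells (3.36%) of 5561 tested. In the endothelial-poor class these were 35, 123, 29 and 77 cells with Dpp4 only and 20, 52, 12 and 20 with Mfap5 only. Of 1800 genes tested, 56 were higher in Dpp4-only cells (3.11%) and 78 higher in Mfap5-only cells (4.33%). Without Lats1/2 CKO E13.5 these were 9 and 30, without control E13.5 36 and 48, and without Lats1/2 CKO E14.5 26 and 62. Of 68 of these calls that were named or listed, 19 held whichever library was left out. Genes named in the next 2 paragraphs kept their call without each library in turn, except where one is given.

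Elastin was far higher in Mfap5-only cells. Eln stood at 1344, 6059, 6490 and 4584 CPM there and at 327, 653, 244 and 284 CPM in Dpp4-only cells (log2 -3.46 for Dpp4-only over Mfap5-only, SE 0.26, edgeR adjusted p = 4.77e-14). Fbln5 stood at 646, 2585, 1377 and 1487 against 163, 331, 48.7 and 284 CPM (-2.80, adjusted p = 1.14e-10). Fbln2 stood at 982, 1347, 1311 and 743 against 373, 153, 146 and 56.7 CPM (-2.76, adjusted p = 4.84e-10). For these 3 genes every Mfap5-only library lay above every Dpp4-only library. Of 15 microfibril and elastic fibre genes tested, 5 were higher in Mfap5-only cells and none in Dpp4-only cells. In either direction 7 of the 15 had an unadjusted p under 0.05, against 295 of all 1800 genes tested. Dkk3, a secreted protein related to Wnt inhibitors, stood at 465, 855, 65.6 and 558 against 35, 47, 24.4 and 8.1 CPM (-4.28, edgeR adjusted p = 2.51e-14). The margin was smallest in control E14.5, where the Mfap5-only value rested on 1 UMI. Igf1 (-2.13), Igfbp5 (-2.20), Vcan (-1.94), Sfrp2 (-2.29) and Hapln1 (-2.35) were higher in Mfap5-only cells too. A UMI of Cdh5, Pecam1, Ptprc or Fcer1g was found in 4, 8, 3 and 1 of 20, 52, 12 and 20 Mfap5-only cells. For Dpp4-only cells these were 1, 4, 0 and 1 of 35, 123, 29 and 77. The part of such cells in the differences was not tested. Of 9 growth factor genes 7 were higher in Mfap5-only cells and 1, Ptn, in Dpp4-only cells.

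Spon2 marked the Dpp4-only side, with 782, 794, 560.5 and 1426 CPM against 155, 178, 65.6 and 155 CPM in Mfap5-only cells (2.44, SE 0.29, edgeR adjusted p = 2.38e-08). Ogn stood at 770.1, 958, 975 and 1110 against 181, 465, 131 and 588 CPM (1.34, adjusted p = 0.000381). The libraries did not overlap for either gene. Mfap5-only cells held 6, 26, 1 and 5 UMIs of Spon2 and 7, 68, 2 and 19 of Ogn. Their control E14.5 values therefore rested on 1 and 2 UMIs. Tcf21 stood at 898, 699.6, 463 and 332 against 388, 150.5, 197 and 186 CPM (1.56, adjusted p = 5.9e-05), with its call lost without Lats1/2 CKO E13.5. Mme, Sema3d and Gucy1a3 were also higher in Dpp4-only cells (3.60, 2.33 and 1.65) and lost their calls without that library. Fbn1 and Mfap4 did not pass the test (-0.23 and -0.47). Of 9 fibroblast markers tested 3 were higher in Dpp4-only cells (Tcf21, Col6a1 and Dcn) and 3 in Mfap5-only cells (Vcan, Lum and Postn). Dcn lost its call without any 1 of the 4 libraries, Col6a1 without any but control E14.5, and Postn without either knockout library.

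**Figure D4:**
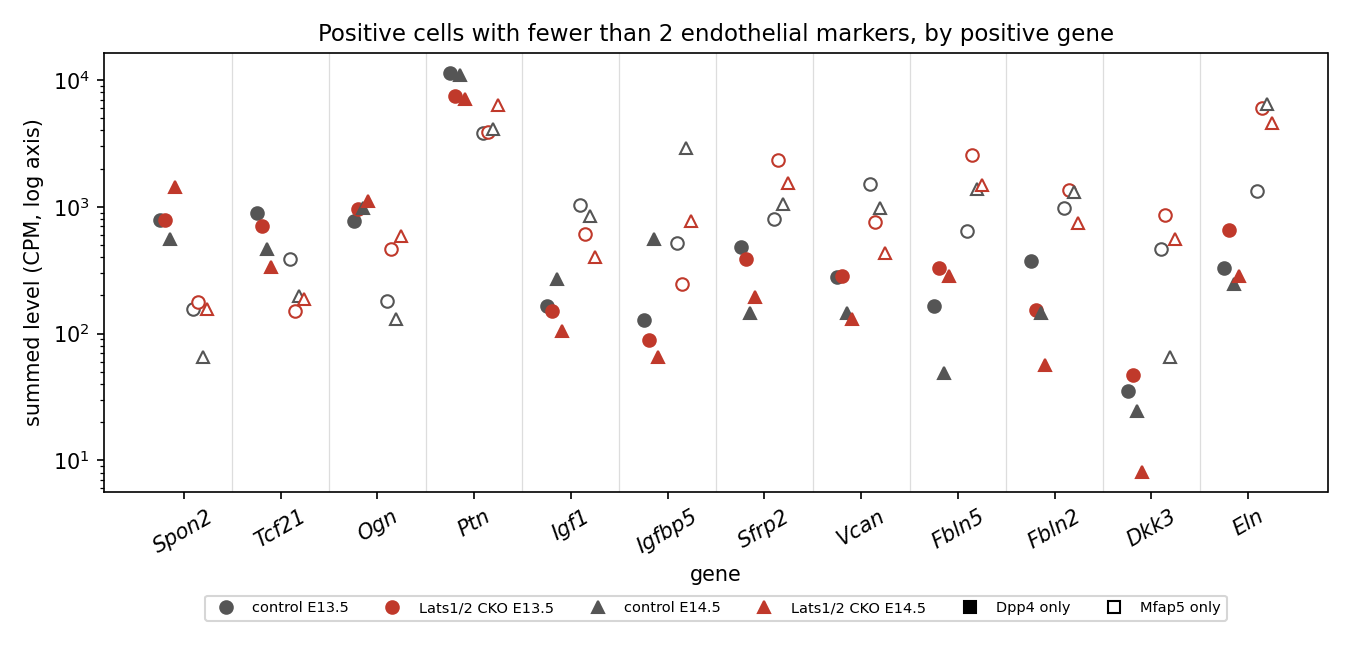
Summed level (CPM, log axis) of 12 genes in endothelial-poor members with Dpp4 only (filled) and with Mfap5 only (open); each point is 1 library, circles are E13.5, triangles E14.5, grey control and red Lats1/2 CKO. Spon2 and Ogn lay higher in Dpp4-only cells, and Eln, Fbln5, Fbln2 and Igf1 lay higher in Mfap5-only cells, with no overlap between the 4 libraries of each side. The control E14.5 points of Spon2 and Ogn in Mfap5-only cells rested on 1 and 2 UMIs.

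In the endothelial-rich class, 40, 87, 13 and 21 Dpp4-only cells were set against 53, 61, 24 and 15 Mfap5-only cells. Of 3096 genes 30 were higher in Dpp4-only cells (0.969%) and 63 in Mfap5-only cells (2.03%), and without control E13.5 these were 2 and 15, without Lats1/2 CKO E13.5 10 and 19. Of 49 of these calls that were named or listed, 6 held whichever library was left out. Stmn2, a protein that binds tubulin, stood at 309.8, 265, 275 and 252 CPM in Mfap5-only cells and 8.3, 13.4, 0 and 0 CPM in Dpp4-only cells (log2 -4.76 for Dpp4-only over Mfap5-only, edgeR adjusted p = 1.88e-07). S100a6, a calcium-binding protein, stood at 149.9, 236, 118 and 252 against 0, 10.1, 0 and 35.9 CPM (-4.11, adjusted p = 6.32e-06). Fbln2 (-2.24) and Eln (-2.22) were higher in Mfap5-only cells here too. Ednrb was higher in Dpp4-only cells, with 2905, 1804, 3002 and 2475 CPM against 949, 838, 1750 and 635 CPM (1.36, adjusted p = 6.31e-05). The calls of these 5 genes held without each library. Stmn2, S100a6 and Ednrb had no overlap between the 2 sides. Pthlh (-4.17) and Wnt4, a Wnt ligand (-3.78), were higher in Mfap5-only cells and lost their calls without control E13.5. The retinoic acid binding protein Crabp2 had 0 UMIs in Dpp4-only cells of all 4 libraries and 109.9, 109.5, 59 and 26.5 CPM in Mfap5-only cells, and the Wnt ligand Wnt9b had 0 UMIs against 119.9, 101, 98.3 and 0 CPM. Both calls were lost without either E13.5 library.

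The rule keeps out cells with 2 or more mesothelial genes, yet Dpp4 was detected in many of those cells. Dpp4 UMIs were found in 54.6%, 63.0%, 35.0% and 44.4% of mesothelial cells, and Mfap5 UMIs in 4.2%, 7.98%, 5.0% and 3.41%, without thinning. Against mesothelial cells, endothelial-poor members had 375 genes higher (4.97%) and 568 lower (7.53%) of 7546 tested by edgeR, and 220 and 293 without Lats1/2 CKO E13.5. Of 148 calls that were named or listed, 91 held whichever library was left out. The rule used mesothelial genes, so part of this contrast was set by it. Of 12 fibroblast markers 8 were higher and none lower. Postn stood at 1174, 772, 1223 and 289 CPM in members and 210.2, 80.8, 133 and 94.9 CPM in mesothelial cells (2.64, edgeR adjusted p = 3.16e-15). Aspn, asporin of the fibrous matrix, stood at 338, 159.9, 209.7 and 121 against 31.3, 13.8, 50 and 9.49 CPM (3.22, adjusted p = 4.47e-12). The libraries of the 2 classes did not overlap for either gene. All 7 epicardial markers tested were lower, with Wt1 at 48.2, 47.8, 17.5 and 98.3 CPM against 235, 154, 216 and 222 CPM (-1.75), and the 5 mural markers tested were higher. Ogn was higher than in mesothelial cells as well (1.01), whereas Prss23 (-0.33) and Dcn (-0.21) did not pass the test.

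The targeted genes were checked first for the genotype comparison. In all members Lats1 stood at 26.1, 20.3, 30.8 and 17.2 CPM and Lats2 at 19.1, 18, 30.8 and 31.6 CPM, and neither passed the test (log2 -0.51 and -0.03, edgeR adjusted p = 0.961 and 0.998). Lats1 had 4, 15, 1 and 1 UMIs in endothelial-poor members, and Lats2 had 3, 12, 4 and 5. Drop-seq reads the 3′ end, which may lie outside the deleted part, so these counts do not check the knockout. Egfp, the recombined reporter, stood at 32.2, 191, 17.5 and 121 CPM in endothelial-poor members. Egfp UMIs were found in 2 of 55, 35 of 183, 1 of 42 and 14 of 104 of them (3.64%, 19.1%, 2.38% and 13%), and after thinning in 1.82%, 10.4%, 0% and 10.6%. The 0 of 42 allows up to 7.14%. Both knockout libraries were above both control libraries, and cardiomyocyte cells had thinned Egfp shares of 0%, 0%, 0.665% and 0.669%. The knockout shares of endothelial-poor negative collagen cells, 2.38% and 2.71%, were lower than those of members, and those of mesothelial cells, 20.2% and 21.5%, were higher. Endothelial-poor members with 0 mesothelial genes numbered 53 of 55, 143 of 183, 34 of 42 and 86 of 104, and the rest had 1. The part of the members with 1 mesothelial gene in the Egfp shares was not tested. In endothelial-rich members the thinned Egfp shares were 1.67%, 0.990%, 2.22% and 0%, where 0 of 41 cells allows up to 7.32%.

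Over all members, 75 genes were higher in the knockout (0.956%) and 47 lower (0.599%) of 7849 tested with edgeR, genotype and stage additive. That fit has 1 residual degree of freedom over 4 libraries. The share of endothelial-rich cells among members was lower in the knockout at both stages (52.5% against 68.6%, and 28.3% against 51.7%). Mfap5-only cells were also a lower share of members (29.35% against 41.71%, and 24.1% against 41.4%). Dpp4-only cells were a higher share (54.55% against 42.86%, and 67.6% against 48.3%). The part of these shifts in the genotype calls was not tested. DESeq2 called 6 genes higher and 4 lower in the same members. Among endothelial-poor members only 3 genes were higher (0.0861%) and 1 lower (0.0287%) of 3485 tested, and among endothelial-rich members 6 were higher (0.0965%) and 9 lower (0.145%) of 6215. All of these were among the calls over all members. The 4 genes called in endothelial-poor members were Rps13-ps1, Gm8420, Gm11942 and Gm17660_Gm43333, which are pseudogenes or joined gene names that can share reads with near-identical copies. Rps13-ps1 stood at 0, 349.5, 0 and 434 CPM there. Of the 75 higher calls, 9 had at least 0.5 times the same log2 ratio in cardiomyocyte cells at both stages, and of the 47 lower calls 17 did.

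Several genes that set endothelial-poor members apart from negative cells were also higher in knockout members as a whole. Ogn stood at 132, 426, 259 and 575 CPM in all members (log2 knockout over control 1.46, SE 0.23, edgeR adjusted p = 0.000561). In endothelial-poor members it was 587, 859, 734 and 1046 CPM, a difference of 0.53 that did not pass (adjusted p = 0.714). Col11a1 stood at 54, 177, 80.1 and 477 CPM (2.08, adjusted p = 6.43e-05), against 1.25 in endothelial-poor members (adjusted p = 0.561). Gucy1a3 (1.67), Prss23 (2.20) and Spon2 (1.51) passed over all members as well, with 0.98, 1.31 and 0.69 in endothelial-poor members, where none passed. In each of these 5 genes both knockout libraries of the endothelial-poor class stood above the control of their stage. The margin was smallest for Spon2 at E13.5, where the values were close.

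Of 15 tested YAP and TAZ targets, 4 were higher over all members and none lower, with a median of 0.46 against 0.01 for all genes. Cyr61 stood at 224, 528, 160.1 and 405 CPM (1.29, SE 0.23, edgeR adjusted p = 0.00176). Ankrd1 stood at 38.3, 112, 142 and 402 CPM (1.54, adjusted p = 0.00161), and Ctgf and Igfbp3 were higher by 1.65 and 1.75. In endothelial-poor members 0 of 9 tested targets were called, and the median was 0.67 against 0.004 for all genes tested. Of these targets 4 had an unadjusted p under 0.05, against 248 of all 3485 genes tested in endothelial-poor members. There Cyr61 stood at 724, 1037, 245 and 647 CPM and Ankrd1 at 145, 206, 139.8 and 589.6 CPM, each knockout library above its control. Hippo pathway genes showed 0 calls of 18 over all members, with 2 at an unadjusted p under 0.05 and a median of -0.05. Over all genes tested, 706 of 7849 had such a p.

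Lrat, which esterifies retinol for storage, was detected in knockout members only. Its level over all members was 0, 58.5, 0 and 63.2 CPM (0, 78, 0 and 22 UMIs), at least 11.2-fold and 3.42-fold higher than a floor of 3 UMIs in the control of the same stage, and edgeR's adjusted p was 0.000207. Endothelial-poor members held 74 and 22 of these UMIs, and the adjusted p there was 0.0871. Gpc4, a glypican of the cell surface, stood at 0, 85.7, 0 and 127 CPM in endothelial-poor members, at least 3.55-fold and 2.43-fold above the floor, with an adjusted p of 0.163 there and 0.00184 over all members. Both genes had 0 UMIs in both control libraries of the endothelial-poor class. Endothelial-poor members without a mesothelial gene were 53, 143, 34 and 86 of 55, 183, 42 and 104. The part of members with 1 such gene in the Lrat and Gpc4 values was not tested. Of the glycolysis list, which also holds the collagen prolyl hydroxylase P4ha1, 3 of 13 were higher over all members (Eno1, Tpi1 and P4ha1, median 1.0). In endothelial-poor members 0 of 9 passed. There 2 had an unadjusted p under 0.05, against 248 of all 3485 genes tested.

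Of the genes called lower over all members, 9 were also called in endothelial-rich members. Nts, the peptide neurotensin, stood at 626, 167, 437 and 34.3 CPM in endothelial-rich members (log2 -2.32, SE 0.32, edgeR adjusted p = 0.00653). Pthlh stood at 204, 52.3, 152 and 22.9 CPM there (-2.12, SE 0.35, adjusted p = 0.0211). Hapln1 stood at 839.7, 362, 514 and 206 CPM there (-1.24, SE 0.23, adjusted p = 0.038) and at 145, 57.7, 262 and 40.5 CPM in endothelial-poor members, where it did not pass (-1.81, adjusted p = 0.351). For each of the 3 genes both knockout libraries lay below both control libraries in endothelial-rich members. Fibroblast markers showed 0 calls of 12 over all members, with 5 at an unadjusted p under 0.05, against 706 of all 7849 genes tested.

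**Figure D5:**
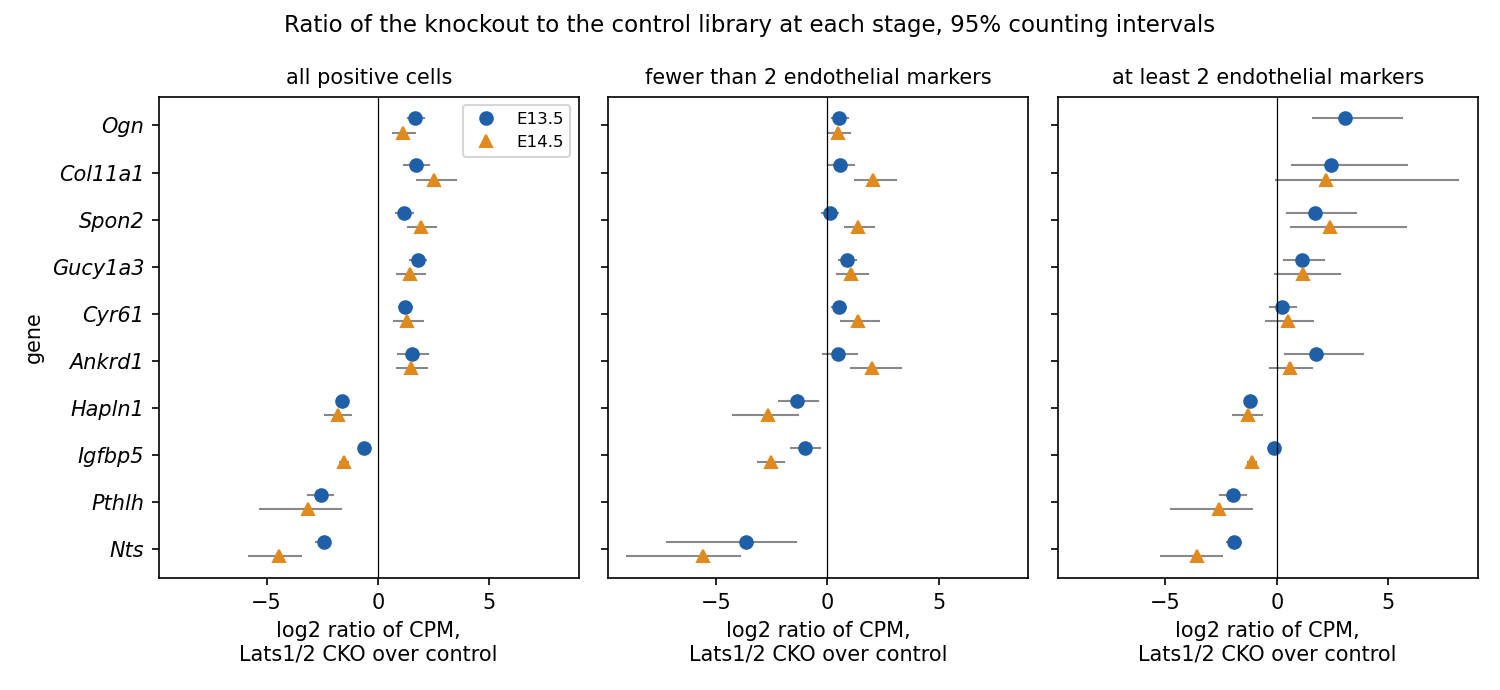
Log2 ratio of CPM, Lats1/2 CKO over control, at E13.5 (circles) and E14.5 (triangles) for 10 genes in all members, endothelial-poor members and endothelial-rich members; lines are exact 95% intervals that cover counting error only, and ratios without a finite interval are not drawn. Ogn, Col11a1, Spon2, Gucy1a3, Cyr61 and Ankrd1 lay right of 0 at both stages in all members, and Hapln1, Igfbp5, Pthlh and Nts lay left of it.

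The genotype effect was also compared between members and negative collagen cells with an interaction term. A positive interaction means that the log2 ratio of knockout to control was higher in members than in negative cells, and a negative one that it was lower. Over all members 19 genes had a positive interaction (0.153%) and 6 a negative one (0.0483%) of 12424 tested. Within the endothelial-poor class there were 8 (0.0727%) and 13 (0.118%) of 11004, and within the endothelial-rich class 3 (0.0368%) and 0 of 8153. Gucy1a3 passed in the endothelial-poor class (log2 interaction 1.35, SE 0.26, edgeR adjusted p = 0.000254), with 515, 956, 367 and 786 CPM in members and 198, 167, 265 and 208 CPM in negative cells. Spon2 passed as well (1.01, adjusted p = 0.0424). In both genes the knockout libraries were higher than control at each stage in members, and in negative cells they were lower than control at each stage. The margin of Spon2 in members was small at E13.5. Postn differed in the other direction (-1.11, SE 0.23, adjusted p = 0.0022), with 1174, 772, 1223 and 289 CPM in members and 2546, 2703, 2557 and 2526 CPM in negative cells. Apoe, a lipid carrier, stood at 941, 259, 507 and 162 CPM in members and 684, 833, 611 and 851 CPM in negative cells (-2.00, adjusted p = 6.34e-10). Igfbp5 had an interaction of -2.00 (edgeR adjusted p = 4.04e-09). In endothelial-poor Mfap5-only cells Igfbp5 stood at 517, 246, 2884 and 774 CPM, with 44 UMIs in control E14.5. A UMI of Cdh5, Pecam1, Ptprc or Fcer1g was found in 5, 12, 3 and 2 of 55, 183, 42 and 104 endothelial-poor members. Among endothelial-poor negative cells these were 33, 104, 49 and 45 of 1583, 1891, 1230 and 961. The part of such cells in these interactions was not tested. In Postn and Apoe the member values fell below control at each stage in the knockout libraries, while in negative cells Apoe was above control at each stage and Postn was above it at E13.5 and below it at E14.5. With negative cells matched to members on UMIs, 2 genes over all members had a positive interaction and 0 a negative one by edgeR, and DESeq2 without matching called 6 and 1.

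Between stages, 105 genes were higher at E14.5 (1.34%) and 12 lower (0.153%) of 7849 tested. Stage goes with depth and with the different gene minimum of the deposited cells, and these cannot be told apart. Of the 105 higher genes, 98 had at least 0.5 times the same log2 ratio in negative collagen cells and 87 in cardiomyocyte cells, with the libraries of a stage summed, and 37 were ribosomal protein symbols. In endothelial-poor members 40 genes were higher (1.15%) and 1 lower (0.0287%), and in endothelial-rich ones 68 (1.09%) and 3 (0.0483%).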

How the data were processed

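Drop-seq UMI counts per gene and cell were deposited by the authors as 1 table of 30268 genes and 24849 cells, from 4 libraries with 1 library per genotype and stage. STAR, Picard and build mm10 are named per the submitters' processing notes, and their versions, the counting settings and strand use are not given in the sources used here. Cells were assigned to libraries by the suffix of their names. The members, the gene lists and the comparisons were chosen with earlier results of these data known, and the endothelial split and the comparison of Dpp4-only with Mfap5-only cells were added after seeing the data.

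UMIs were summed per library and class, and edgeR 4.0.16 (R 4.3.3) was run with TMM, filterByExpr and the quasi-likelihood test, with a Benjamini-Hochberg adjusted p under 0.05. Genotype and stage were additive over 4 sums, class comparisons had the library as a block over 8 sums, and an interaction of class with genotype was also fitted. With 1 library per group, p-values measure the spread left between these libraries, which may be technical. Genes of the rule were kept in the fits and given as description only. Library totals after filters ranged from 8569238 to 17073173 UMIs, and endothelial-poor members held 124376, 606514, 57225 and 172993 UMIs. Shares have 95% Clopper-Pearson intervals after each cell was thinned to 500 UMIs, single-stage ratios have exact conditional binomial intervals, and a floor of 3 UMIs stands in for 0. For a share of 0 the upper limit printed is 3 cells of the total, not the Clopper-Pearson bound. The scripts were tested on simulated data. DESeq2 1.42.0, other filters, depth limits, doublet limits and each library left out were the alternatives.

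Genes were named from the 12 highest and 12 lowest changes among calls with at least 50 CPM on the higher side, 10 ranked genes in each direction for genotype, a fixed set of epicardial, fibroblast and Hippo genes, and 2 to 4 members per list. Further called members of a list, and Fbn1, Mfap4, Cyr61, Ctgf and Hapln1 where they did not pass, were named after their values were seen.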

Additional observations from a re-analysis of the deposited data

Results flagged for a closer look

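The genotype difference was unlike in Dpp4 or Mfap5 positive cells and in negative collagen cells for 18 named genes, by the interaction term of edgeR's quasi-likelihood test over all members. The log2 interaction was above 0, a higher ratio of knockout to control in members, for G0s2 (1.98), Gucy1a3 (1.96), Prss23 (1.96), Slc38a5 (1.86), Col11a1 (1.80), Rnd3 (1.76), Spon2 (1.75), Lsp1 (1.72), Sfrp1 (1.45), Cyr61 (1.36), Gpc3 (1.35) and Capn6 (1.35). It was below 0 for Igfbp5 (-1.32), Ccdc80 (-1.22), Hapln1 (-1.19), Vcan (-0.98), Cpe (-0.96) and Tm4sf1 (-0.87). Endothelial-rich cells made up 68.6% and 51.7% of control members and 52.5% and 28.3% of knockout members, against 8.65% to 10.1% of negative cells. Mfap5-only cells made up 41.71% and 41.4% of control members and 29.35% and 24.1% of knockout members. The part of these shifts in each interaction was not tested. Within endothelial-poor cells Gucy1a3, Spon2, Igfbp5, Cpe and Tm4sf1 passed the interaction test as well. Over all members the 19 positive and 6 negative interactions became 2 and 0 with negative cells matched on UMIs, 3 and 1 with 0 mesothelial genes, and 6 and 1 with DESeq2.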

How the results depend on the processing

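Counts are given as higher and lower calls. For genotype over all members (75 and 47), DESeq2 called 6 and 4, cells with at least 1000 UMIs 24 and 11, a rule of at least 2 UMIs of Dpp4 and Mfap5 20 and 5, cells without endothelial or immune UMIs 13 and 13, endothelial-poor members 3 and 1 and endothelial-rich members 6 and 9, and lower calls with 0 mesothelial genes were 28. For stage (105 and 12), DESeq2 called 51 and 1, the 2-UMI rule 40 and 2, endothelial-poor members 40 and 1 and endothelial-rich members 68 and 3. Lower stage calls were 43 without a count filter, 2 at 1000 UMIs, 21 with 0 mesothelial genes and 44 without the deepest 5% of cells. For all members against negative cells (866 and 671), counts were 304 and 322 without cells with endothelial or immune UMIs, 492 and 279 with cells matched on UMIs, 295 and 291 in the endothelial-poor class and 88 and 30 in the endothelial-rich class, and DESeq2 called 363 lower. Against mesothelial cells (971 and 1000), DESeq2 called 553 and 602, removal of cells with endothelial or immune UMIs left 422 and 582, the endothelial-poor class 375 and 568, and removal of the deepest 5% 655 lower. For the interaction (19 and 6), DESeq2 called 6 and 1, no count filter 49 and 18, the 2-UMI rule 79 and 16, 0 mesothelial genes 3 and 1, matched cells 2 and 0, the endothelial-poor class 8 and 13 and the endothelial-rich class 3 and 0, and higher calls were 5 without the deepest 5% and 5 without cells with endothelial or immune UMIs. For Dpp4-only against Mfap5-only over all members (123 and 187), DESeq2 called 50 and 90, the endothelial-poor class 56 and 78 and the endothelial-rich class 30 and 63. The E13.5 share ratios were 1.67 of kept cells and 1.69 of collagen cells without thinning, against 2.80 and 2.70. The cause of these differences was not tested.

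Leaving out 1 library in turn gave 476 to 898 higher and 278 to 656 lower calls against negative cells, 559 to 912 and 594 to 978 against mesothelial cells, and 47 to 116 and 71 to 177 between Dpp4-only and Mfap5-only cells, with each lowest count without Lats1/2 CKO E13.5. In the endothelial-poor class the ranges were 103 to 281 and 78 to 275, 220 to 332 and 293 to 546, and 9 to 73 and 30 to 90. In the endothelial-rich class they were 33 to 118 and 8 to 60, 684 to 1072 and 791 to 1143, and 2 to 31 and 15 to 78. The stage difference of Mest (-0.82 on the log2 scale) turned to 0.198 without cells with endothelial or immune UMIs and 0.0528 in endothelial-poor members. With 1 library left out, endothelial-poor members against negative cells gave -1.142 to 0.0131 for Hba-a1 (lowest without Lats1/2 CKO E13.5, highest without Lats1/2 CKO E14.5) and -0.0936 to 2.575 for Nts (lowest without control E14.5). Against mesothelial cells Nts gave -0.203 to 1.846, again lowest without control E14.5. Of the values of single named genes, 3328 kept their direction and call, 687 kept their direction but lost the call and 5 turned. No paired analysis was possible because each group had 1 library, so no replicate number links genotypes. The library block of the class comparisons is not such a pairing. Genotype was not refitted without single libraries, since no residual degree of freedom would remain.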
